A study of Sus scrofa with 16 samples.

Results

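Transcripts of 4 erythroid genes, HBM, HBB, AHSP and ALAS2, were followed animal by animal in the left ventricle after a myocardial infarction (MI) and after a sham operation (Sham) in pigs. The members were the probe sets of a porcine Affymetrix array whose only gene symbol was one of these 4. Each gene had 1 such probe set, so the members were 4 of 23999 probe sets tested, and 4 of the 6765 genes that had a probe set with a single symbol. The study comprised 16 Yorkshire x Landrace pigs aged 2 to 3 months, 8 MI and 8 Sham, with 1 array each. Tissue was taken 3 weeks after surgery, and each group held 4 animals labelled F and 4 neutered animals labelled M. The labels do not give the region of the left ventricle or its distance from the infarct. They describe frozen myocardium crushed in liquid nitrogen, Trizol extraction with column cleanup, and biotin-labelled cRNA. Animals are named by group and number, as in MI 4.

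Red cell precursors fill with hemoglobin, a tetramer of alpha-type and beta-type globin chains that each hold a heme group. ALAS2 is the erythroid form of the first and rate-limiting enzyme of heme synthesis, and it is encoded on the X chromosome. AHSP is a chaperone that binds free alpha-type chains until they pair with a beta-type chain, HBM encodes a minor alpha-type globin called mu, and HBB encodes the adult beta-globin. The heart does not make red cells, but blood remains in frozen heart tissue, and young red cells (reticulocytes) still carry such RNA after losing the nucleus.

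On the pig assembly Sscrofa11.1, HBM lies on chromosome 3 at 41489312 to 41490110, in a run of 5 protein-coding genes bounded by HBQ1 and the embryonic alpha-type gene HBZ. HBB lies on chromosome 9 at 4800683 to 4801941, at one end of a run of 4 protein-coding genes whose other end is the embryonic beta-type gene HBE1. AHSP is also on chromosome 3, at 17059340 to 17060343, far from the alpha-globin genes, and ALAS2 is on chromosome X at 47871519 to 47896041. The array annotation and RefSeq gave AHSP different gene identifiers, so it was matched by symbol and the others by identifier. Other globin genes stand beside HBM and HBB, and whether these probe sets also bind their RNA was not tested.

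Values are log2 signals as deposited, with a median of 6.24 on every array. A signal counted as above background when it exceeded 4.99, the highest signal that any of 23 controls lacking a target RNA gave on any array. Cardiac muscle was plainly measured: all 13 cardiomyocyte markers were above background, with a mean level of 13.62 to 13.79 in MI and 13.67 to 13.83 in Sham. The spike-in controls separated the arrays into a set of 11 (6 MI, 5 Sham), called set A, and a set of 5 (MI 7, MI 8 and Sham 6 to 8), called set B. The 3′ minus 5′ difference of the actin control probes, a measure of RNA integrity and labelling, was 2.64 ± 0.29 (SD, n = 11) in set A and 1.42 ± 0.14 (SD, n = 5) in set B. It was 2.39 ± 0.59 in MI and 2.12 ± 0.68 in Sham (SD, n = 8 each). MI 7 was labelled F, but its signal for the Y-linked gene EIF1AY was 9.51, within the 9.40 to 9.96 of the 8 animals labelled M and above the 3.00 to 3.51 of the other 7 labelled F. The main differences, the spread, the values by sex and the closest pair are therefore also given without MI 7.

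HBM and AHSP were higher in MI than in Sham, and the ALAS2 difference, though also positive, did not pass. HBB did not follow them: its mean was slightly lower in MI and its interval reached from a small decrease to a small increase. In the limma fit, 10.5% of all probe sets passed at an adjusted p under 0.05, 5.39% as higher in MI and 5.14% as lower. Of the 4 members, 2 rose, none fell and 2 did not pass. Their median difference was 0.71, against 0 over all probe sets. Since the members were chosen with earlier results of these data known, these values only describe them. With only the 16000 brightest probe sets tested, 654 passed, HBM among them (adjusted p 0.0165) and AHSP not (adjusted p 0.0653). In bulk tissue, a change in the number of erythroid cells and a change in their RNA per cell cannot be told apart. Whether these signals came from erythroid cells was not tested.

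HBM signals in MI 1 to 8 were 7.10, 6.86, 6.29, 8.30, 6.79, 6.70, 7.72 and 6.40. In Sham 1 to 8 they were 5.92, 5.85, 5.66, 5.85, 5.81, 5.90, 5.91 and 6.42. The Sham values fell within a narrow band except that of Sham 8, which stood above it, overlapping MI 3 and MI 8. The means were 7.02 ± 0.68 in MI and 5.92 ± 0.22 in Sham (SD, n = 8 each), a difference of 1.11 (SE 0.24, 95% interval 0.59 to 1.62) or 2.15-fold, with an adjusted p of 0.00843. All 8 MI animals exceeded the Sham mean, and 6 exceeded every Sham animal. Of all 23999 probe sets, 7 had a larger increase. The call held when any 1 animal was left out, with differences from 0.89 without MI 4 to 1.23 without MI 3.

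AHSP signals in MI 1 to 8 were 5.80, 6.08, 4.92, 5.65, 6.31, 5.34, 6.70 and 4.68. In Sham 1 to 8 they were 5.18, 4.81, 4.98, 4.46, 4.93, 4.62, 4.81 and 5.02. Again 6 MI animals stood above every Sham animal, while MI 3 and MI 8 lay among the Sham values. Background was exceeded on 6 MI arrays and 2 Sham arrays, so most Sham values sat in the range of probes with no target. The means were 5.69 ± 0.69 in MI and 4.85 ± 0.23 in Sham (SD, n = 8 each), a difference of 0.83 (SE 0.24, 95% interval 0.32 to 1.34) with an adjusted p of 0.0376. No fold is given, because the Sham mean lay under the background level, and with 32 added before log2 the difference was 0.48 (adjusted p 0.0625). This call was near the threshold: it was lost when MI 1, 2, 4, 5 or 7 or any of Sham 2 to 7 was left out, with adjusted p from 0.00307 to 0.0727 over the 16 omissions. The difference was 0.68 without MI 7 (adjusted p 0.0602).

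ALAS2 signals in MI 1 to 8 were 7.59, 8.61, 6.23, 7.89, 7.74, 6.71, 8.57 and 6.82. In Sham 1 to 8 they were 6.96, 6.82, 7.03, 6.58, 6.58, 6.90, 6.99 and 7.56. Of the MI animals, 5 exceeded every Sham animal, and MI 3 lay below every Sham animal, so MI values extended past the Sham range on both sides. The means were 7.52 ± 0.87 and 6.93 ± 0.31 (SD, n = 8 each), a difference of 0.59 (SE 0.28, 95% interval -0.01 to 1.20) with an adjusted p of 0.22. The call did not change when any 1 animal was left out.

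HBB signals in MI 1 to 8 were 8.36, 7.98, 8.22, 8.12, 8.02, 7.97, 8.29 and 8.11. In Sham 1 to 8 they were 8.80, 7.85, 7.89, 8.15, 8.52, 8.29, 7.95 and 8.14. The MI values lay wholly inside the Sham range, whose highest values came from Sham 1 and Sham 5. The means were 8.13 ± 0.14 and 8.20 ± 0.33 (SD, n = 8 each), a difference of -0.06 (95% interval -0.32 to 0.20) with an adjusted p of 0.817. An increase of the size fitted for HBM lies outside this interval. Without Sham 1 the sign of the HBB difference turned, at 0.02.

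**Figure D1:**
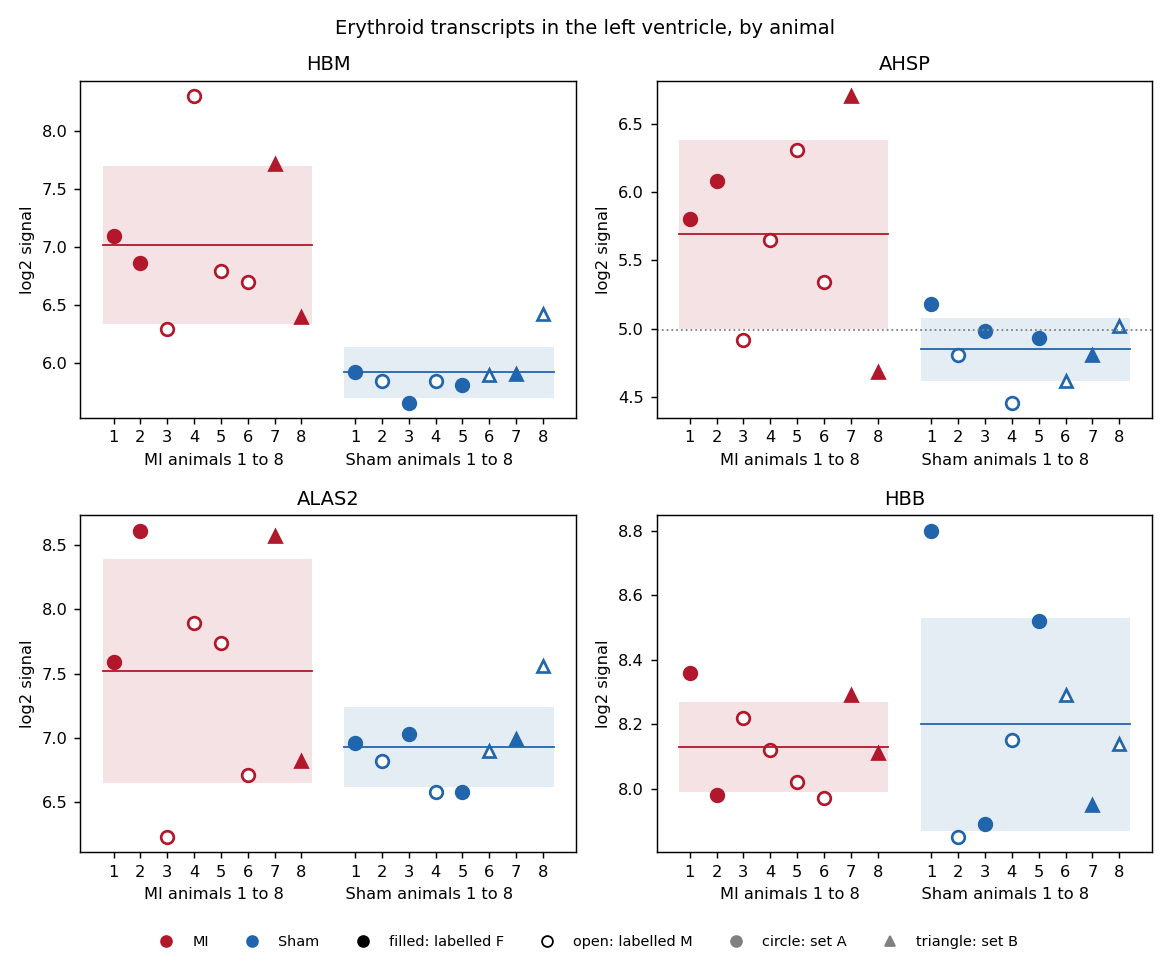
Log2 signal of HBM, AHSP, ALAS2 and HBB (y axes, each with its own range) in MI animals 1 to 8 and Sham animals 1 to 8 (x axes). Lines are group means, shaded bands 1 SD, filled symbols animals labelled F, open symbols animals labelled M, circles array set A, triangles array set B, and the dotted line the background level of 4.99. In MI, 6 animals lie above all Sham animals for HBM and AHSP, and MI values for HBB lie within the Sham range.

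The same MI animals were low for HBM, AHSP and ALAS2. MI 3, MI 6 and MI 8 held the 3 lowest MI places for each of these genes, and MI 7 was first or second for each. The animal ranked first differed: MI 4 for HBM, MI 7 for AHSP and MI 2 for ALAS2. The low animals included both sex labels and both array sets (MI 3 and MI 6 labelled M, in set A; MI 8 labelled F, in set B). HBB gave another order, with MI 1 highest and MI 6 lowest. Among Sham animals, Sham 8 was highest for HBM and ALAS2 and second for AHSP.

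The scatter was wider in MI than in Sham animals for HBM, AHSP and ALAS2, but the unadjusted p was under 0.05 only for AHSP and ALAS2. None passed after adjustment over all probe sets. For HBM, the mean absolute deviation from the group median was 0.48 in MI and 0.12 in Sham, with a two-sided exact permutation p of 0.0645 over all 12870 splits. For AHSP it was 0.54 and 0.18 (exact p 0.0244), with 2 Sham arrays above background, and whether the background narrowed the Sham scatter was not tested. For ALAS2 it was 0.68 and 0.21 (exact p 0.0263). HBB ran the other way, at 0.11 in MI and 0.24 in Sham (exact p 0.13). The adjusted p was 1 for each, and no probe set passed after adjustment (0.0%), since 75 probe sets would have had to reach the smallest p that the permutations can give, 0.000155. Unadjusted, 1.71% of probe sets were wider in MI at a p under 0.05 and 2.24% wider in Sham. The excess of the MI SD over the Sham SD was larger in 0.117% of probe sets than in ALAS2, in 0.225% than in HBM and in 0.229% than in AHSP. Without MI 7, the MI mean absolute deviation still exceeded that of Sham, by 0.29 for HBM, 0.29 for AHSP and 0.43 for ALAS2 (adjusted p 0.999 each).

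Within MI animals, AHSP and ALAS2 varied together most closely. Their Pearson r was 0.86 (exact permutation p 0.00801, adjusted p 0.0961 over the 12 pairs of both groups) and Spearman rho 0.76 (exact p 0.0368, adjusted p 0.221). It was 0.85 without MI 7 and MI 8, the animals farthest from the AHSP median, and 0.81 to 0.89 when each animal was left out. Leaving out MI 7 and MI 8 leaves the 6 MI animals of set A, so the value within that set is the same one. None of the 12 pairs passed after adjustment, and centring the values within each sex took this pair past the threshold (r 0.88, adjusted p 0.0199). With MI 7 also left out, the sex-centred r was 0.88 and did not pass (adjusted p 0.168). The permutations of sex-centred values mixed the sexes and did not allow for the centring, so these adjusted p may be too small.

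HBM had a lower Pearson r with both, though its rank correlation with ALAS2 equalled that of AHSP, and differences between pairs were not tested. With ALAS2 in MI, r was 0.63 (exact p 0.0943, adjusted p 0.377) and rho 0.76 (exact p 0.0368, adjusted p 0.221), with r at 0.73 without MI 4 and MI 7 and 0.49 within set A. With AHSP in MI, r was 0.54 (exact p 0.172, adjusted p 0.483) and rho 0.64 (exact p 0.0962, adjusted p 0.289), with r at 0.79 without MI 4 and MI 7 and 0.24 within set A. MI 4 held the highest HBM value and only the fifth AHSP value. HBB had a low r with the others in MI: 0.23 with HBM, 0.09 with AHSP and 0.02 with ALAS2 (adjusted p 0.885, 0.923 and 0.967 by the exact permutation test). Its rho was 0.33, 0.14 and 0.00 (adjusted p 0.734, 0.82 and 1). HBB signals spanned only 7.97 to 8.36 in MI (SD 0.14), so a low r there cannot show that HBB varied apart from them. Without the 2 animals farthest from the median of the other gene, r with HBB was 0.10, -0.31 and -0.05.

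In Sham animals the highest Pearson r was that of HBM and ALAS2, at 0.76 (exact permutation p 0.0565, adjusted p 0.339) and rho 0.45 (exact p 0.267, adjusted p 0.642). Single animals moved this r: it was -0.03 without Sham 8, 0.93 without Sham 3, and 0.91 without both. With both left out, the remaining HBM signals spanned only 5.81 to 5.92. For AHSP and ALAS2, r was 0.51 (exact p 0.201, adjusted p 0.483) and rho, the highest of the Sham pairs, was 0.67 (exact p 0.0831, adjusted p 0.289). The other Sham pairs had r of 0.22 (HBM and AHSP), 0.09 (HBM and HBB), 0.37 (AHSP and HBB) and -0.17 (ALAS2 and HBB), with adjusted p of 0.732 or more for r and 0.734 or more for rho by exact permutation. AHSP exceeded background on 2 of the 8 Sham arrays, so its Sham correlations rest mostly on signals in the range of probes with no target. Set A held 5 Sham animals, too few for a correlation within it. Whether any pair's r differed between MI and Sham was not tested.

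**Figure D2:**
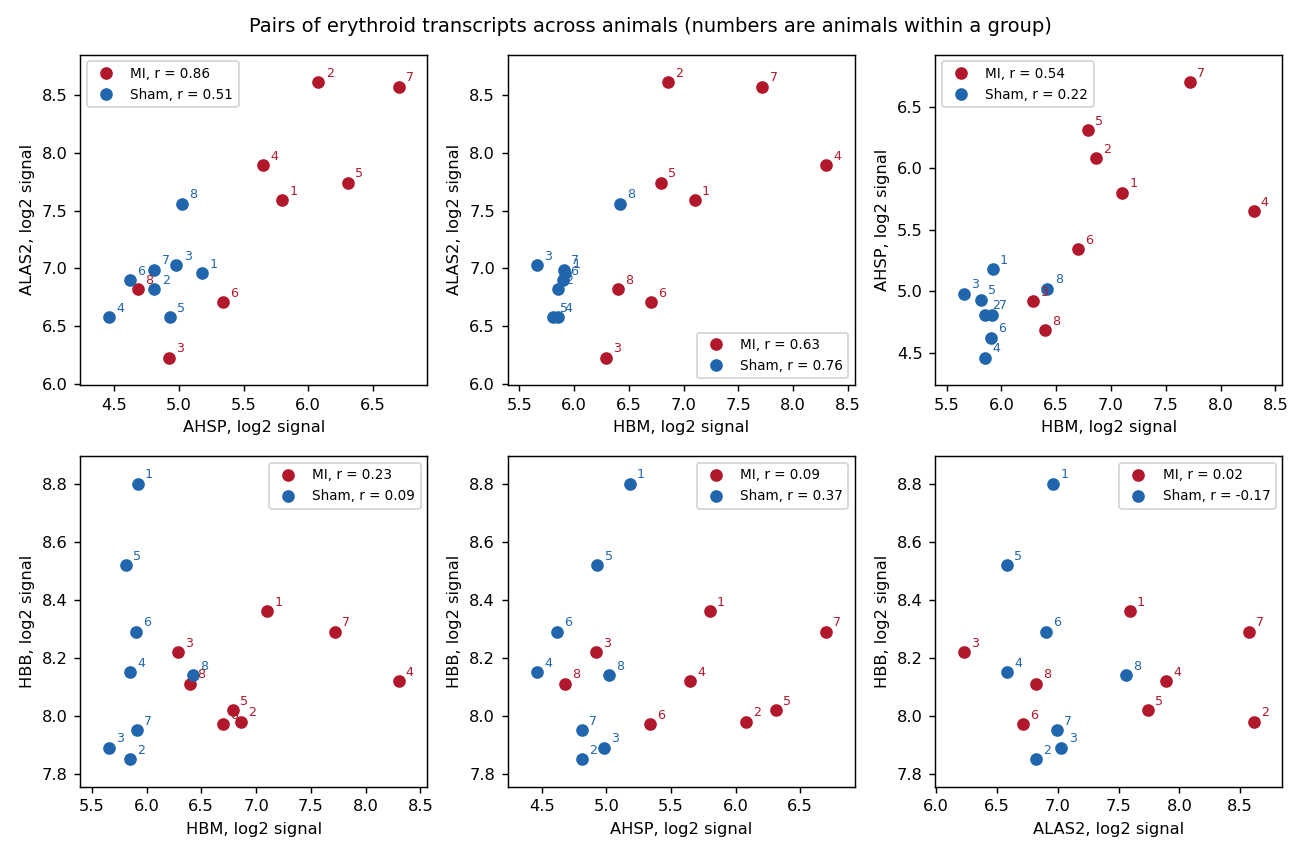
Each panel plots 2 of the 4 genes against each other in log2 signal, 1 point per animal, red for MI and blue for Sham, with the animal number beside the point and Pearson r for each group (n = 8). In MI the points of AHSP and ALAS2 rise together (r 0.86). HBB, whose MI signals span only 7.97 to 8.36, has r of 0.02 to 0.23 with the others.

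The covariation was also set beside that of every other gene. Deviations from the group mean over the 16 arrays were correlated with those of 5849 other single-symbol genes whose mean was above background. These 16 points share the arrays and their normalization, so the values are descriptions. For AHSP and ALAS2, r was 0.82, and 1 gene, OAZ1, ranked above ALAS2 for AHSP and above AHSP for ALAS2. For HBM, r with ALAS2 was 0.65, and 11 of the genes ranked above ALAS2. With AHSP it was 0.51, and 64 ranked above AHSP. HBB had r of 0.11 with HBM, 0.14 with AHSP and -0.05 with ALAS2, and 1798, 1603 and 3099 genes ranked above them.

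OAZ1, the gene most like both AHSP and ALAS2, encodes antizyme, which restrains polyamine synthesis by inhibiting ornithine decarboxylase. Its r was 0.88 with AHSP (0.89 in MI, 0.85 in Sham) and 0.89 with ALAS2 (0.91 in MI, 0.79 in Sham). AHSP itself was above background on only 2 of the 8 Sham arrays. OAZ1 signals in MI 1 to 8 were 13.62, 13.90, 12.22, 14.04, 13.78, 12.65, 14.05 and 12.13, so MI 3, MI 6 and MI 8 were the lowest here too. It did not pass in MI against Sham, with a difference of 0.57 (SE 0.31) and an adjusted p of 0.285. Next for AHSP came RGS2, a regulator of G protein signalling (r 0.81), the heat shock co-chaperone DNAJB1 (0.78), WDR19 (0.75) and ANGEL2 (0.75). For DNAJB1, r was 0.86 in MI and 0.04 in Sham, so its place rested on the MI animals. After OAZ1, ALAS2 was nearest to LMAN2, a cargo receptor of the secretory pathway (0.76), the transcription factor KLF10 (0.75), CHIC2 (0.75) and KDELR2, a receptor that returns proteins to the endoplasmic reticulum (0.73). KDELR2, like DNAJB1, owed its place to the MI animals, with r of 0.88 in MI and 0.09 in Sham.

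HBM had other neighbours. The nearest was IER5, an immediate early response gene, with r of 0.88 (0.93 in MI, 0.71 in Sham). IER5 peaked in the same animals, at 9.94 in MI 4 and 9.03 in MI 7, and at 8.94 in Sham 8 among Sham animals. BTG2, an antiproliferative gene (r 0.78), CYR61, a matricellular protein (0.75), ATF3, a stress-induced transcription factor (0.75), and SLC31A2, a copper transporter (0.74), followed. ATF3 leaned on single animals, with r from 0.47 to 0.87 when each was left out. IER5 ranged from 0.73 to 0.90. HBB was nearest to WWP1, a ubiquitin ligase (0.87), B3GALNT1 (0.81), ABCD3, a peroxisomal transporter (0.79), the actin-related gene ACTR6 (0.79) and MRPL33, a protein of the mitochondrial ribosome (0.76). None of the genes named here as most alike passed in MI against Sham.

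**Figure D3:**
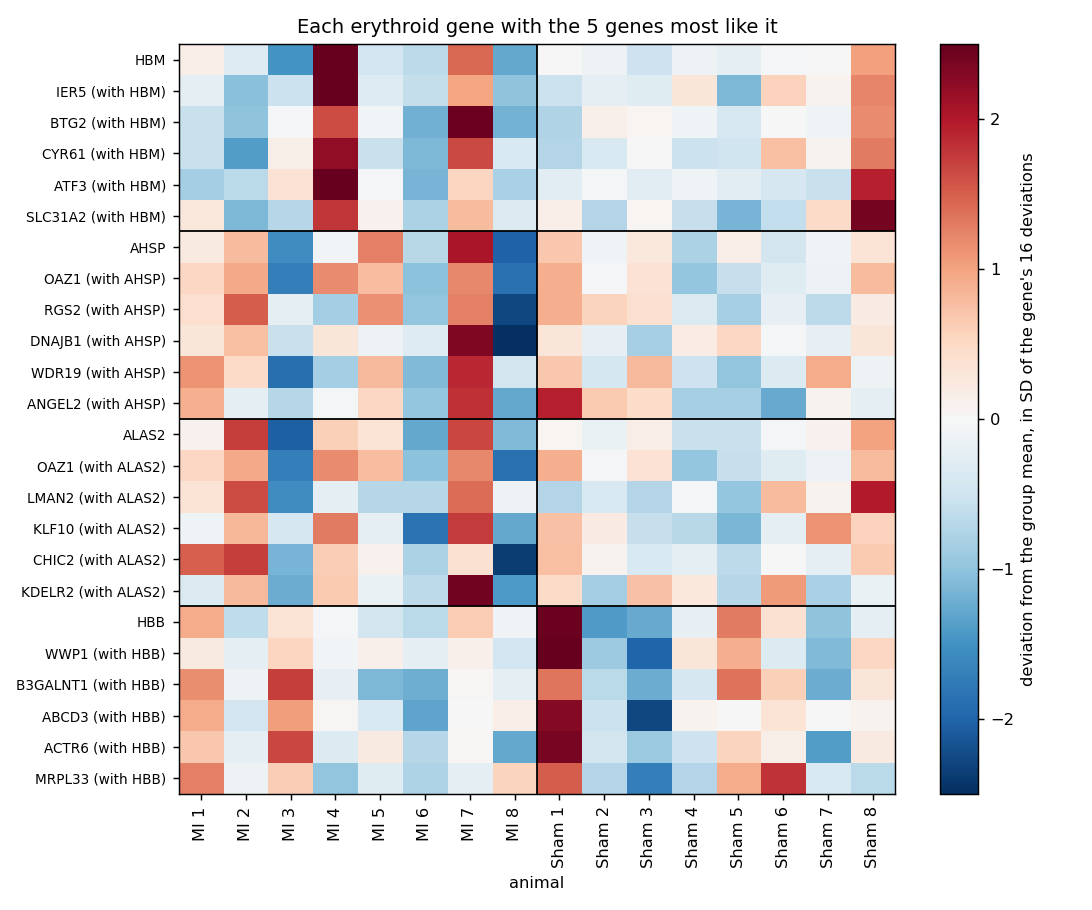
Rows are the 4 erythroid genes, each above the 5 genes with the most similar pattern, and columns are the 16 animals. Colour gives each animal's deviation from its group mean in units of the SD of the gene's 16 deviations, red above and blue below. MI 3, MI 6 and MI 8 are blue for AHSP, ALAS2 and OAZ1, while MI 4, MI 7 and Sham 8 are red for HBM and its neighbours.

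By sex label, HBM and AHSP differed by similar amounts in females and males, and ALAS2 by unequal amounts that were not told apart. HBM was 7.02 ± 0.55 in MI females against 5.83 ± 0.12 in Sham females, and 7.02 ± 0.88 in MI males against 6.0 ± 0.28 in Sham males (SD, n = 4 each). The differences were 1.19 in females (adjusted p 0.0745 in limma) and 1.02 in males (adjusted p 0.121). Those of AHSP were 0.84 (adjusted p 0.224) and 0.83 (adjusted p 0.202). The female minus male gap between these differences had a 95% interval of -0.85 to 1.21 for HBM and -1.01 to 1.03 for AHSP (adjusted p 0.948 and 0.995), wide enough to hold a sizeable gap either way. Without MI 7, the differences in females were 0.96 for HBM (adjusted p 0.194) and 0.54 for AHSP (adjusted p 0.491). None of the 4 genes passed within either sex, where 2.85% of all probe sets passed in females and 3.4% in males.

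ALAS2, the X-linked gene, was 7.90 ± 0.86 in MI females against 6.89 ± 0.21 in Sham females, and 7.14 ± 0.80 in MI males against 6.96 ± 0.42 in Sham males (SD, n = 4 each). The difference was 1.01 in females (adjusted p 0.214) and 0.18 in males (adjusted p 0.843). The interaction was 0.83 with a 95% interval of -0.38 to 2.04 (adjusted p 0.799), so it did not pass, and the interval held values of both signs. No probe set passed the interaction in limma (0.0%); 1363 had an unadjusted p under 0.05 (5.68%). Over both groups, female minus male was 0.34 for ALAS2, 0.26 for AHSP, 0.14 for HBB and -0.09 for HBM, each with an adjusted p of 0.998, where 0.0583% of probe sets passed. Without MI 7, the ALAS2 difference in females was 0.78 (adjusted p 0.432) and its interaction 0.61 (adjusted p 0.979), while female minus male was 0.23 for ALAS2, 0.11 for AHSP and -0.20 for HBM (adjusted p 1 each).

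Across the alternative settings the HBM call was the steadier of the pair that passed. HBM passed in 29 of 30 alternatives and AHSP in 13 of 30. Of the 30, 16 left out 1 animal each, and some others could hardly act. Median centring left both unchanged, each gene had only 1 probe set to average, and quantile normalization moved no value by more than 0.121. With the array set as a block, the difference was 1.13 for HBM and 0.82 for AHSP (adjusted p 0.00788 and 0.0411). Within set A alone it was 1.19 and 0.81 (adjusted p 0.0141 and 0.0315). Within set B, which held 2 MI and 3 Sham arrays, it was 0.98 and 0.87 (adjusted p 0.426 and 0.6). Without MI 7 and with the set as a block, HBM was 0.99 (adjusted p 0.021) and AHSP 0.61 (adjusted p 0.0852).

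**Figure D4:**
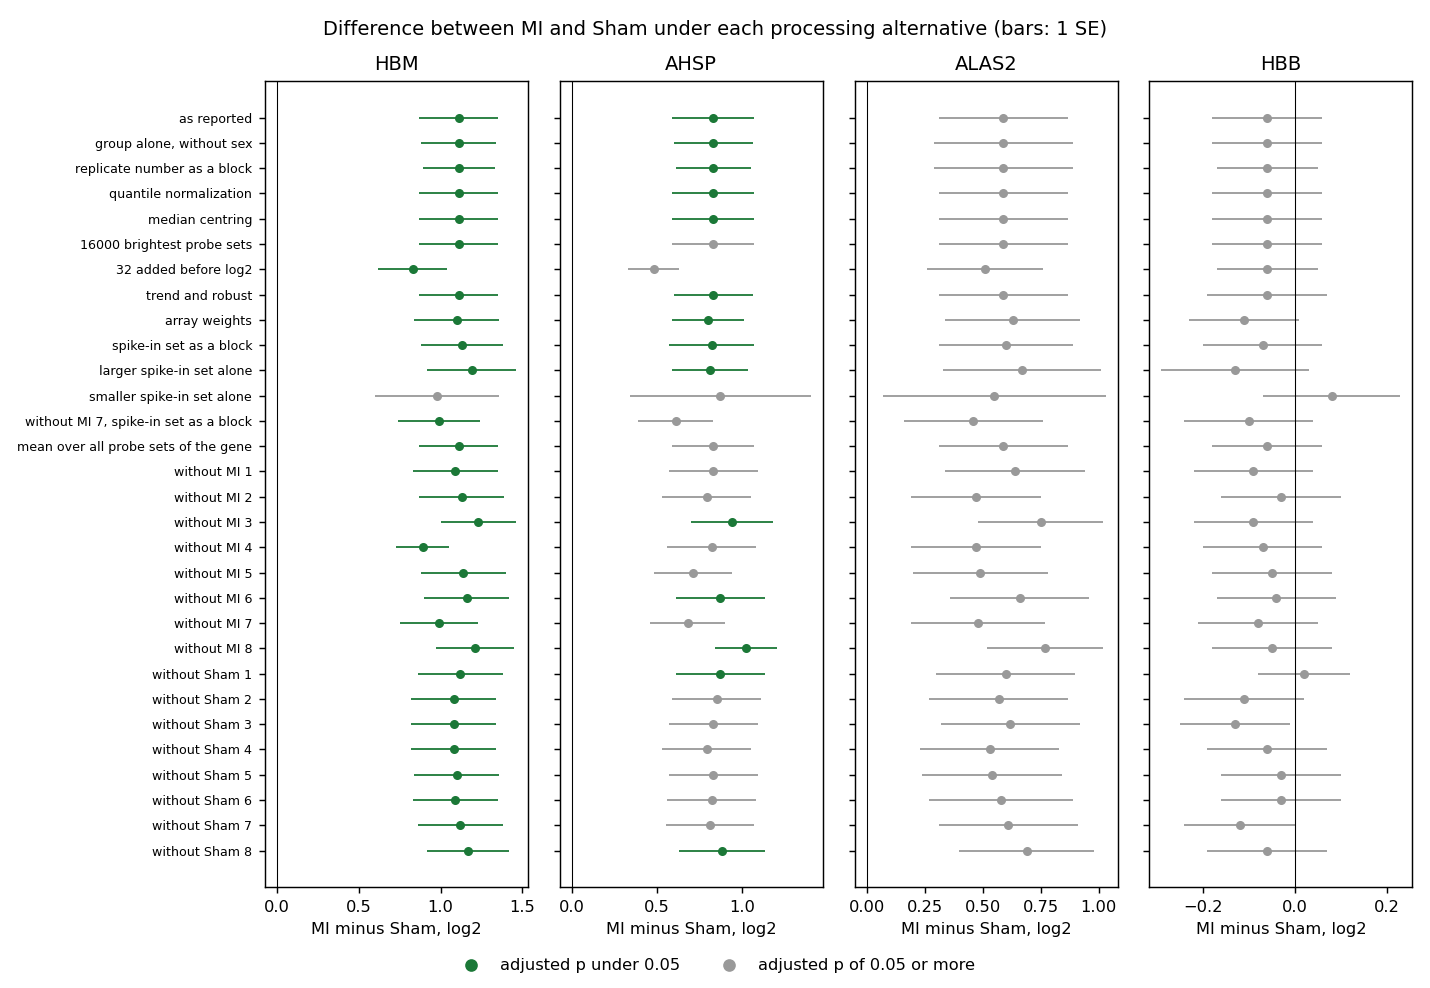
Difference between MI and Sham in log2 signal (x axes, with 1 SE) for HBM, AHSP, ALAS2 and HBB under the reported setting and each alternative (rows). Green marks an adjusted p under 0.05 and grey any other. HBM is green in all rows but that of the smaller array set, AHSP changes between green and grey, and ALAS2 and HBB are grey throughout.

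Other erythroid genes measured on the array showed no broad rise. Of the other globins, 3 of 13 listed were measured and 1 rose (median difference 0.20), where 4.12% of single-symbol genes passed as higher and 3.5% as lower. That gene was HBE1, the embryonic beta-type globin, at 4.35 ± 0.11 in MI and 3.93 ± 0.12 in Sham (SD, n = 8 each), with a difference of 0.42 (SE 0.06) and an adjusted p of 0.000494. The groups did not overlap, which held for 2.96% of all probe sets and with MI higher for 1.57%. All 16 HBE1 signals were below background, so no fold is given. HBE1 lies near HBB on chromosome 9, and HBB did not change with it.

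Of 37 listed genes for red cell membrane proteins and enzymes, 14 were measured and none passed (median difference -0.04; 2 had an unadjusted p under 0.05). The lowest p belonged to BCL2L1, which encodes the survival factor BCL-XL, with a difference of -0.55 (adjusted p 0.0903) and 0.13 at its other probe set (adjusted p 0.478). BCL2L1 did pass with the array set as a block (-0.47, adjusted p 0.0406), within set A (-0.61, adjusted p 0.0365), with array weights (-0.63, adjusted p 0.0336), without MI 8 (-0.65, adjusted p 0.0406) and without Sham 2 (-0.66, adjusted p 0.0366). FAM210B, a mitochondrial protein of erythroid cells, followed with -0.24 (adjusted p 0.189). One of its other probe sets did fall, by 0.49 (adjusted p 0.0133), and the remaining one gave -0.50 (adjusted p 0.0608).

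Of 22 listed erythroid transcription factors and members of the erythropoietin (EPO) pathway, 12 were measured, none rose and 1 fell (median difference -0.06). BCL11A, known in human and mouse as a repressor of fetal-type globin genes, was 5.45 ± 0.27 in MI and 5.98 ± 0.14 in Sham (SD, n = 8 each). It fell by 0.53 (SE 0.11, adjusted p 0.00514), and 7 of 8 MI animals lay below every Sham animal. KLF1, the erythroid transcription factor named here by its role and outside the naming rule, was near background in both groups, at 4.94 ± 0.15 and 4.97 ± 0.12 (SD, n = 8 each), with an adjusted p of 0.851.

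Heme and iron genes gave 1 rise in each list. Of 10 measured heme synthesis and transport genes (20 listed; median difference -0.07), SLC25A38, a mitochondrial glycine carrier that feeds the ALAS reaction, rose from 7.68 ± 0.29 to 8.06 ± 0.21 (SD, n = 8 each), a difference of 0.38 (adjusted p 0.0189). Its other probe set gave -0.09 (adjusted p 0.642), and the mean over both gave 0.14 (adjusted p 0.457). Of 7 measured genes of heme breakdown and hemoglobin clearance (11 listed; median 0.15), HP rose. HP encodes haptoglobin, the plasma protein that binds free hemoglobin, and its means were 5.24 ± 0.30 and 4.80 ± 0.30 (SD, n = 8 each), a difference of 0.44 (adjusted p 0.0287). That call was lost when MI 1, MI 3, MI 8, Sham 1 or Sham 7 was left out, and 5 MI and 2 Sham arrays were above background.

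Of 12 measured genes of iron uptake, storage and export (24 listed; median 0.02), HAMP rose. HAMP encodes hepcidin, the hormone that limits iron export from cells. Its signals were 5.30 to 5.71 in MI (median 5.40) and 4.68 to 5.04 in Sham, with no overlap. The difference was 0.67 (SE 0.07, adjusted p 5.68e-05), with 8 MI arrays and 1 Sham array above background. Unlike AHSP and ALAS2, HAMP was not low in MI 8, which held its highest value.

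**Figure D5:**
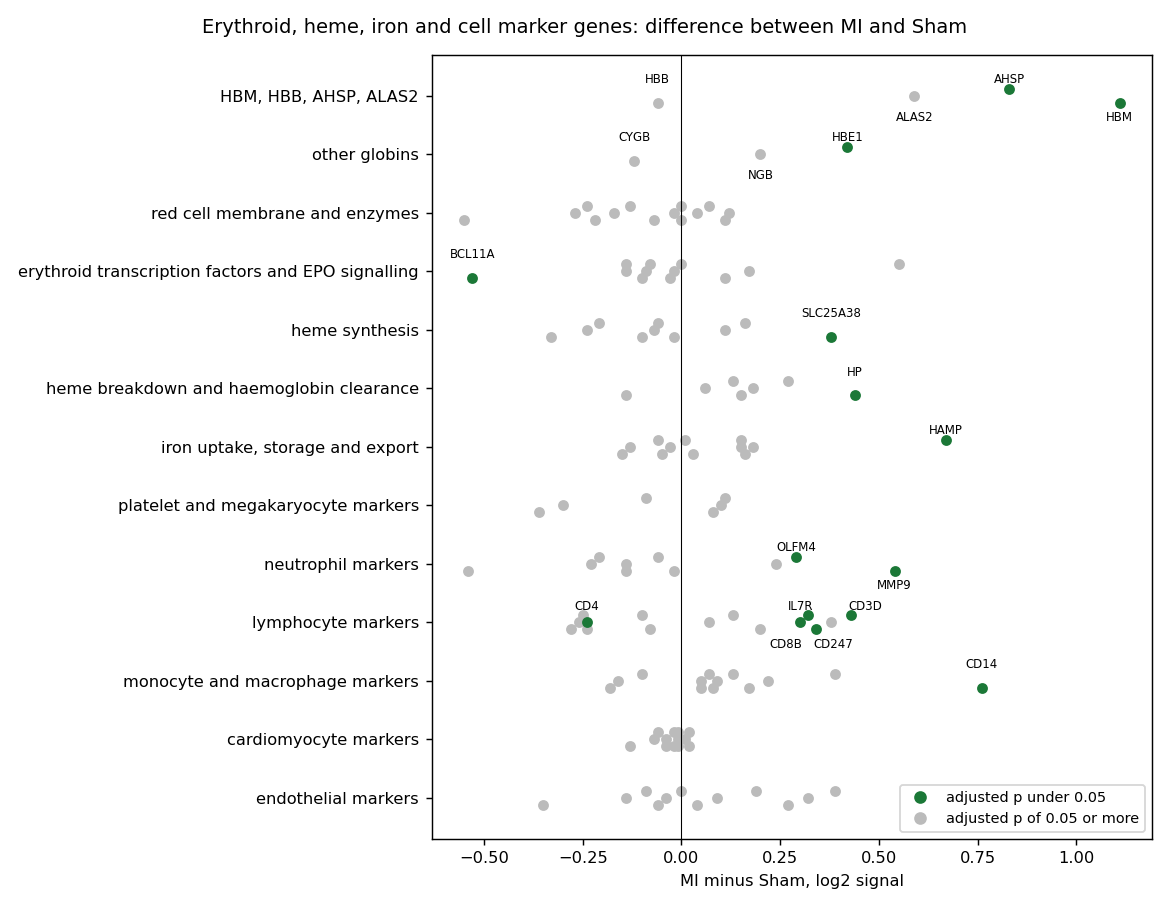
Difference between MI and Sham in log2 signal (x axis) for each measured gene of 12 lists and for HBM, HBB, AHSP and ALAS2 (rows), with green for an adjusted p under 0.05 and grey for any other. HBM at 1.11 and AHSP at 0.83 lie farthest to the right, and the red cell membrane, platelet, cardiomyocyte and endothelial rows hold no green point.

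Markers of other cells that could move with blood or with tissue composition are given beside these results, and their part in them was not tested. None of 6 measured platelet and megakaryocyte markers passed (median -0.01), with ITGB3 at -0.36 (adjusted p 0.139) and THBS1 at -0.30 (adjusted p 0.451). The mean level of this list was 6.04 to 6.25 in MI and 6.0 to 6.41 in Sham. Of 10 neutrophil markers, 2 rose and none fell (median -0.10), and 2 of the 10 were above background. MMP9, a matrix metalloproteinase, rose by 0.54 (adjusted p 0.000569), with 8 MI arrays and 0 Sham arrays above background. OLFM4 rose by 0.29 (adjusted p 0.00665). It was below background on every array and gave -0.11 at its other probe set (adjusted p 0.399). The neutrophil list's mean level was 4.28 to 4.57 in MI and 4.30 to 4.96 in Sham.

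Of 15 lymphocyte markers, 4 rose and 1 fell (median 0.07). The T cell receptor genes CD3D (0.43, adjusted p 0.0116) and CD247 (0.34, adjusted p 0.0248), CD8B (0.30, adjusted p 0.0206) and the interleukin 7 receptor IL7R (0.32, adjusted p 0.0324) rose, and CD4 fell by 0.24 (adjusted p 0.0462). Given here outside the naming rule, CD3E (-0.26, adjusted p 0.443), CD3G (0.13, adjusted p 0.737) and CD8A (-0.10, adjusted p 0.831) did not pass. The call of CD247 was lost without MI 4, MI 6 or Sham 3, that of IL7R without MI 1 to 4, MI 7, Sham 3 to 5 or Sham 8, and that of CD4 without any 1 of MI 1 to 7, Sham 2 or Sham 4 to 8. None of the 3 other CD247 probe sets passed (0.29, 0.08 and 0.05; adjusted p 0.0544, 0.754 and 0.751), nor did the other CD4 probe set (-0.02, adjusted p 0.904). CD4 was below background on every array, and IL7R was above it on 1. The list's mean level was 5.30 to 6.04 in MI and 5.44 to 6.09 in Sham. Of 13 monocyte and macrophage markers, 1 rose (median 0.08): CD14, the lipopolysaccharide co-receptor, by 0.76 (adjusted p 0.00314), while its other probe set gave 0.28 (adjusted p 0.056), with a list level of 7.68 to 8.14 in MI and 7.58 to 8.06 in Sham. None of 13 cardiomyocyte markers passed (median -0.02), the lowest p belonging to ACTC1 (-0.13, adjusted p 0.371) and CKM (-0.06, adjusted p 0.557). None of 12 endothelial markers passed (median 0.02), with KDR at 0.39 (adjusted p 0.13) and TIE1 at -0.35 (adjusted p 0.299). A second KDR probe set, below background on every array, did rise, by 0.31 (adjusted p 0.0169).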

How the data were processed

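RNA of the left ventricle of 8 MI and 8 Sham pigs was measured on 1 array each. The deposited values are taken as log2 signals, since they span 2.87 to 14.9; how the authors normalized and summarised them was not given in the sources used here. They were used as deposited. Arrays give no counts, so their number and the signal over background limit precision. Of the probe sets, 124 controls were left out of the tests. A gene with several probe sets was represented by the brightest. Genes were tested with limma 3.58.1 in R 4.3.3, with 1 coefficient per cell of group and sex (12 residual degrees of freedom), two-sided, with Benjamini-Hochberg adjustment over 23999 probe sets and a threshold of 0.05. Spread and covariation were tested by exact permutation (numpy 2.4.6, Python 3.11.15). The limma fit and the spread test were tested on simulated data, and the covariation test and the ranking of most alike genes were not. The members and the lists were chosen with earlier results of these data known. The text names, of each list, the genes passing or otherwise the 2 with the lowest p, and for each member the 5 genes most like it. Alternatives were another design, normalization, filter or offset (32), array weights, probe set means, the replicate number as a block, the array sets, MI 7 left out, and each animal left out; those for the differences within a sex, for the most alike genes and for centring by sex without MI 7 were chosen after seeing the data. Gene symbols came from the platform annotation, positions from RefSeq for Sscrofa11.1.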

Additional observations from a re-analysis of the deposited data

Results flagged for a closer look

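Among the 4 genes in each group of 8, 2 of 8 tests found an animal far from the others, where chance gives about 1 in 20. Both concerned Sham 8, a male of array set B, so they count 1 animal in 2 genes and are not independent. Its HBM signal was 6.42, with the next Sham value at 5.92, and the gap took a share of 0.66 of the group's range, above the limit used for 8 animals. Its ALAS2 signal was 7.56, with the next at 7.03 and a share of 0.54. Without Sham 8 the HBM difference between MI and Sham was 1.17 (adjusted p 0.01) and that of ALAS2 was 0.69 (adjusted p 0.166).

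The control probe sets, outside the main tests, include 3 for the erythropoietin receptor EPOR, through which EPO acts on red cell precursors. That for the middle of the transcript was 5.96 ± 0.07 in MI and 5.76 ± 0.14 in Sham (SD, n = 8 each), a difference of 0.20 (exact permutation p 0.00404, adjusted p 0.0121 over the 3). Those for the 3′ and 5′ ends gave 0.13 (exact p 0.0852, adjusted p 0.128) and 0.04 (exact p 0.658, adjusted p 0.658). The EPOR probe set among those tested was below background on every array, at -0.09 (adjusted p 0.568).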

How the results depend on the processing

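HBM kept its call in 29 of 30 alternatives (0.83 to 1.19, 14 settings; each animal left out, 0.89 to 1.23) and lost it within set B (0.98). AHSP lost its call at an adjusted p under 0.01 (0.83), with the 16000 brightest probe sets (0.83), with 32 added before log2 (0.48), within set B (0.87), without MI 7 and with the set as a block (0.61) and with probe sets averaged over 6765 genes (0.83), and ranged over 0.68 to 1.02 with animals left out. ALAS2 did not pass in any (0.47 to 0.77 with animals left out). HBB turned to 0.08 within set B, and ranged over -0.13 to 0.02 with animals left out. The count passing, 2527, was 1123 at 0.01, 654 with the 16000 brightest, 1 within set B and 382 with averaged probe sets.

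By sex, leaving out each animal gave differences in females of 0.96 to 1.40 for HBM (passing without MI 4), -0.24 to 0.07 for HBB, 0.54 to 1.22 for AHSP (passing without MI 8), and in males of -0.11 to 0.04 for HBB and -0.07 to 0.48 for ALAS2. The counts passing were 376 to 710 in females and 415 to 950 in males. The interaction ranged over -0.06 to 0.61 for HBM, -0.21 to 0.09 for HBB and -0.29 to 0.39 for AHSP; without MI 7 and with the set as a block it turned to -0.06 for HBM and -0.09 for AHSP. Female minus male for HBM ranged over -0.21 to 0.13.

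With animals left out, r ranged in MI over -0.24 to 0.24 (AHSP and HBB) and -0.25 to 0.30 (ALAS2 and HBB), and in Sham over -0.15 to 0.38 (HBM and AHSP), -0.03 to 0.93 (HBM and ALAS2), -0.11 to 0.42 (HBM and HBB), -0.09 to 0.51 (AHSP and HBB) and -0.31 to 0.01 (ALAS2 and HBB). Centred by sex, r in MI was 0.88 for AHSP and ALAS2, past the threshold in permutations that mixed the sexes. For ALAS2 and HBB it was -0.20 centred by sex and -0.02 centred by set. With MI 7 also left out, sex-centred r was -0.38 for ALAS2 and HBB and -0.24 for AHSP and HBB. ACTC1 turned to 0.10 within set B. The causes were not tested.

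The labels number animals 1 to 8 in both groups. Same-numbered deviations correlated at -0.0701 to 0.456, and 2 MI animals correlated best with their own number, so the numbers were not taken as pairs. With the replicate number as a block, HBM was 1.11 (adjusted p 0.0113), AHSP 0.83 (0.038), ALAS2 0.59 (0.247) and HBB -0.06 (0.757), and 2790 probe sets passed; of the other genes named as passing, HP, CD8B and CD4 did not.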
